A study of Mus musculus with 3 samples.

Results

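The cells described here are Paneth-like cells of mouse intestinal organoids in which Apc had been targeted. A cell was taken as Paneth-like when Defa24, Defa22 and Lyz1 together made up at least 2% of its unique molecular identifiers (UMIs, each of which tags 1 captured RNA molecule). This rule gave 104 cells, 30 from the LApc library and 74 from the LApcL library, among 9004 kept cells of all 3 libraries and 34185 deposited barcodes. The members were thus chosen by the measured levels of these 3 genes, so their levels are given as a description and no test is attached to them.

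The study sequenced single cells of small intestinal organoids from C57BL/6 mice aged 7 to 8 weeks that had all received 2 doses of tamoxifen (2 mg). The WT mice were labelled only as WT, a name that the study also gives to Lgr5-EGFP-IRES-CreERT2 control mice. The LApc mice were Lgr5-CreERT2;Apc fl/fl, and the LApcL mice had the same alleles together with Lef1 fl/fl. The study's methods name the Cre allele in full as Lgr5-EGFP-IRES-CreERT2. Cre was thus driven from Lgr5, a gene of crypt base stem cells, and both targeted groups carried floxed Apc, the scaffold of the complex that degrades β-catenin, while LApcL also carried floxed Lef1, a DNA-binding partner of β-catenin. Organoids were taken at passage 3 on day 6, and tissue had been collected 21 days after tamoxifen for WT and LApcL and 29 days after it for LApc, so that the day and the genotype cannot be told apart. Each genotype was 1 library. No test between genotypes was therefore possible, and the 95% intervals below cover counting error only.

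Paneth cells sit at the base of small intestinal crypts between the Lgr5+ stem cells. They fill secretory granules with lysozyme and with α-defensins, which are short antimicrobial peptides that the protease Mmp7 cuts to their active form in the mouse, and they also supply stem cells with Wnt3, Notch ligands and EGF. They form in the secretory lineage that Atoh1 opens, which also gives rise to mucus-making goblet cells, and high Wnt signaling is known to drive their maturation.

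The kept cells were those with at least 2000 UMIs, at most 20% mitochondrial UMIs and a barcode found in only 1 library. Between 27.3% and 30.3% of the barcodes of each library also occurred in another library and were left out. The 3 libraries then held 2319 (WT), 3093 (LApc) and 3592 (LApcL) cells with 54107489 to 95363408 UMIs. The LApcL members had a median of 20290 UMIs against 11920 in the other LApcL cells, while the LApc members had 26260 against 26230. Their median mitochondrial share was 4.31% in LApc and 4.37% in LApcL, against 6.67% and 8.22% in the other cells. The LApc and LApcL libraries also differed in the sex-linked genes, with Xist at 992 and 1.14 CPM (counts per 1000000 UMIs) and Eif2s3y at 0 and 39.9 CPM in their members, so that sex and genotype cannot be told apart either. A pair of LApc members had nearly proportional profiles, with 12432 and 17816 UMIs and a chi-square of 1.56 per gene over 201 genes, where the next closest pair had 7.12 and the median pair 23.96. Counted as 1 cell, they would leave 29 LApc members.

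The label was checked against Paneth markers that the rule did not use. Summed over 97 of the 104 members, the angiogenin Ang4, the lectin Itln1 and the protease Mmp7 stood at least 13.2-fold above the other cells of their library. The pentraxin gene Mptx2, another such marker, was nearly absent from all members and did not bear out the label. In the remaining 7 cells, all from LApc, Ang4 was at 8.29, Itln1 at 182 and Mmp7 at 970 CPM, against at least 6797, 3035 and 9538 CPM in the other members. Compared with the other LApc cells, Ang4 was lower in the 7 cells, while Itln1 and Mmp7 were higher. A single cell held 135 of their Mmp7 UMIs. As all 3 genes lay far below the other members, the label was not taken to hold for the 7 cells. These 7 cells passed the rule through Defa22 alone, at 2.54% to 9.90% of their UMIs, whereas Defa24 and Lyz1 together made up at most 0.00758%. In the other 23 LApc members Defa24 and Lyz1 made up at least 1.99%, and in the 74 LApcL members at least 0.461%, so that no member lay between. The 7 cells are called Defa22/Defa21-high cells from here on, and LApc values are given for the other 23 members unless all 30 are named.

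The 2 defensin genes that set these groups apart are shown by their coding sequences, together with Defa21, which followed Defa22 from cell to cell. The sequences come from the GENCODE M21 annotation of GRCm38, each has 282 bases in 2 coding exons, and the genes lie on the + strand at chr8:21734494-21735471 (Defa24), chr8:21162277-21163249 (Defa22) and chr8:21025545-21026516 (Defa21). Capitals mark the 60 positions at which the 3 sequences are not all alike.
Defa24: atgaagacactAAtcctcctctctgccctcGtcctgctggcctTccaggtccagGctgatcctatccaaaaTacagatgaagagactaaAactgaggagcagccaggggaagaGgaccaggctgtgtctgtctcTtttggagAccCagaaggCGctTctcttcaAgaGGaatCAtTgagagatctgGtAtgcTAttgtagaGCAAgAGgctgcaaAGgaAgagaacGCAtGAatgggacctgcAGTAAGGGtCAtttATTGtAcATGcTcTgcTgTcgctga
Defa22: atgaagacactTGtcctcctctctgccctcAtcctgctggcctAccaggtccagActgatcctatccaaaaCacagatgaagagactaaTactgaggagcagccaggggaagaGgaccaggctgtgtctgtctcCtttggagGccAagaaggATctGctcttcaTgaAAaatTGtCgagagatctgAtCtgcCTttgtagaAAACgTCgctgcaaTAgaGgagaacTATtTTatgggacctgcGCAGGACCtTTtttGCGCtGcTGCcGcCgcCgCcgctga
Defa21: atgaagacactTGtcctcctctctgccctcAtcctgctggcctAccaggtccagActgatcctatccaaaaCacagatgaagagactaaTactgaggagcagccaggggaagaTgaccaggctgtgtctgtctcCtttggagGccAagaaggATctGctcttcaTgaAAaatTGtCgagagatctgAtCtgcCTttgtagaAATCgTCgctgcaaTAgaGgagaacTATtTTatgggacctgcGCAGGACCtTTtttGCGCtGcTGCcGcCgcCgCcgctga
Defa22 and Defa24 differed at 58 of these positions and Defa22 and Defa21 at only 2. Reads of Defa22 and Defa21 are thus hard to keep apart: 74.9% of the 50-base stretches of the Defa22 transcript and 72.9% of those of Defa21 also occur in another gene's transcript, against 28.1% for Defa24. For Lyz1 the share was 16.1%, all with its paralog Lyz2, and for Mmp7, Wnt3 and Muc2 it was 0%. Levels of single Defa genes are therefore uncertain wherever the counting could split reads among copies.

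The 3 rule genes were carried in different proportions by the 2 genotypes. Lyz1, the lysozyme gene of Paneth cells, was the highest of the 3 in 15 of 30 LApc members, Defa22 in 8 and Defa24 in 7. In LApcL, Defa24 led in 62 of 74 members, Defa22 in 11 and Lyz1 in 1. Lyz1 stood at 42346 CPM in the 23 LApc members and at 9427 CPM in the 74 LApcL members. The ratio of these levels was 0.223, and 0.308 against all 30 LApc members. Per cell, its level ran from 0 over a median of 31470 to 107280 CPM in LApc and from 0 over 1709 to 101870 CPM in LApcL, so the groups overlapped over almost the whole range although most LApcL cells were low. Defa24 was higher in LApcL, at 43962 and 81577 CPM, with cell medians of 23994 (0 to 170990) and 82763 CPM (3935 to 303490). Defa22 stood at 16884 and 22956 CPM (but at 27143 CPM in all 30 LApc members, above LApcL), with cells again spread from 0 to 70493 and from 0 to 134720 CPM. In the other cells the 3 genes stood between 13.6 and 104 CPM in both libraries.

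**Figure D1:**
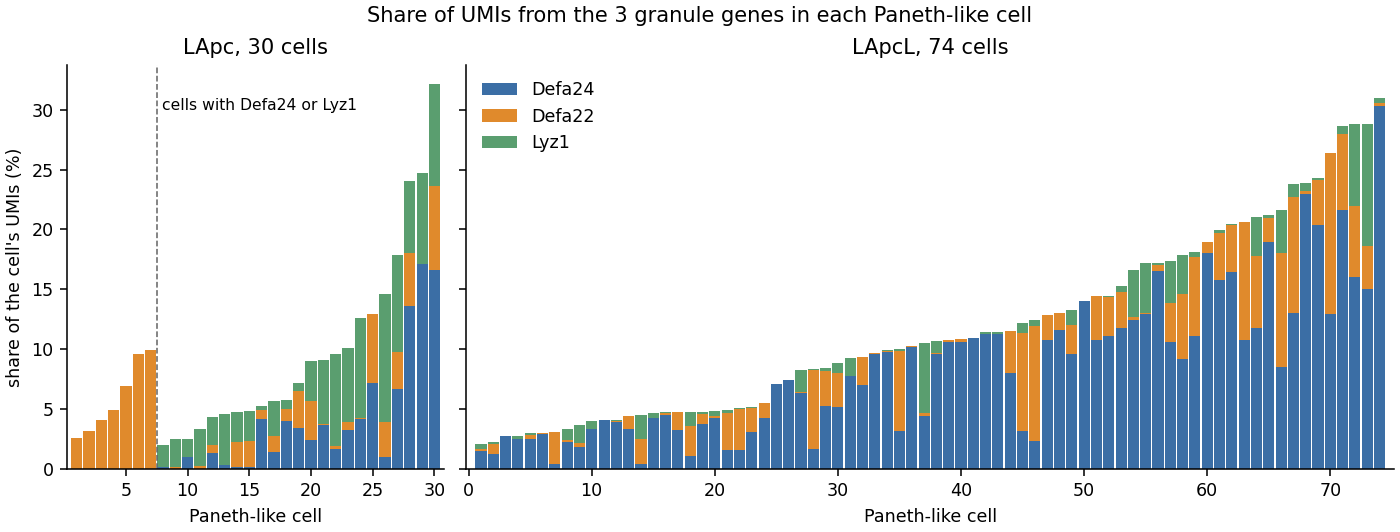
Each bar is 1 Paneth-like cell, and its height is the percentage of the cell's UMIs from Defa24 (blue), Defa22 (orange) and Lyz1 (green), with LApc on the left (30 cells) and LApcL on the right (74 cells). The 7 leftmost LApc bars hold almost only Defa22, Lyz1 is the largest segment in 15 of the 30 LApc bars, and Defa24 is the largest in 62 of the 74 LApcL bars.

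**Figure D2:**
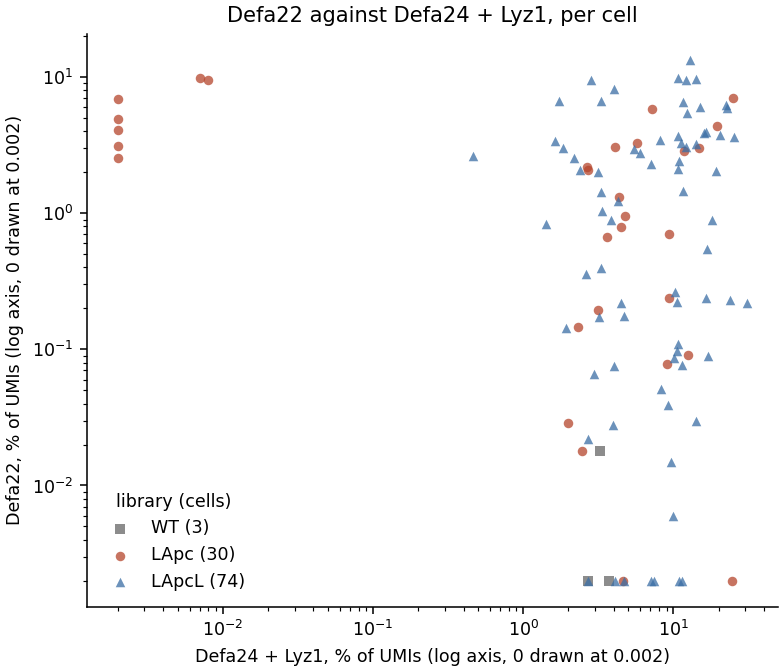
Each point is 1 cell that passed the rule, with the percentage of UMIs from Defa24 and Lyz1 on the x axis and from Defa22 on the y axis, both on log axes with 0 drawn at 0.002. The 7 LApc cells at the left edge reach at most 0.00758% Defa24 and Lyz1, and none of the 74 LApcL cells lies there.

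Paneth-like cells were a small share of both targeted libraries. They made up 0.970% of kept LApc cells (Clopper-Pearson interval 0.655 to 1.38) and 2.06% of kept LApcL cells (1.62 to 2.58). The ratio of the LApcL share to the LApc share was 2.12 (1.37 to 3.36). Without the 7 Defa22/Defa21-high cells the LApc share was 0.744% (0.472 to 1.11) and the ratio 2.77 (1.72 to 4.64). The class is a range cut from a per-cell score. The lowest members had 2.02% (LApc) and 2.06% (LApcL) of their UMIs in the 3 genes, and the highest cells outside had 1.94% and 1.93%. Between 1% and 2% lay 11 LApc and 16 LApcL cells, and between 2% and 3% lay 4 and 5 members. The members held 88.8% of all UMIs of the 3 genes in kept LApc cells and 94.6% in LApcL. The LApcL share depended on the minimum of UMIs: with at least 10000 UMIs it was 3.11%. With a rule of 5% the shares were 0.582% (LApc) and 1.48% (LApcL), and without a mitochondrial limit 0.557% and 1.28%.

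In WT the same rule found 3 of 2319 cells, or 0.129% (0.0267 to 0.378), which were not members here. Beside Defa24 at 29691 CPM these cells carried the goblet genes Tff3 at 50729, Fcgbp at 25537, Zg16 at 9999.6 and Muc2 at 6077 CPM, and Mmp7 and Wnt3 had 0 UMIs in them. In the other WT cells Mmp7 was also low, at 0.499 CPM, where it stood at 403 and 757 CPM in the other cells of LApc and LApcL.

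Most granule genes of Paneth cells outside the rule were higher in the members. With both libraries pooled, 33 of the 37 list genes with at least 10 UMIs were at least 2-fold higher in the members than in the other cells and 3 were at least 2-fold lower, with a median log2 ratio of 7.01. Among all 17433 genes measured in that way, 4.24% were 2-fold higher and 11.8% 2-fold lower. Most genes of this list belong to the Defa cluster and share sequence with the rule genes, so their excess is not independent of the rule. Without the cluster 11 of 15 measured genes were higher and 3 lower in the pooled members, with a median of 2.90. In the 23 LApc members 9 of 15 were then higher and 1 lower (median 3.40), and in LApcL 11 of 14 were higher and 3 lower (median 3.96). With the cluster, in the 23 LApc members 29 of 35 genes were higher and 1 lower with a median of 7.14, where 6.20% of all genes were higher and 21.4% lower. In LApcL 32 of 35 were higher and 3 lower with a median of 7.70, beside 5.47% and 17.2% of all genes. With all 30 LApc members 30 of 35 were higher and 1 lower, with a median of 6.77, beside 5.45% and 14.5%. The median over all genes of at least 50 CPM was -0.34 (30 LApc members) and -0.50 (LApcL) on the same scale, and -0.14 and -0.22 when UMIs of the rule and Defa genes were left out of the total.

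Of the 20 genes ranked highest in the pooled members, 14 were α-defensins or genes of that cluster outside the rule, and their pooled log2 ratios ran from 10.85 for Defa30 to 8.21 for Defa23. Defa30 stood at 10022 CPM in LApc and 15846 CPM in LApcL, against 2.26 and 10.2 CPM in the other cells. Its spread was wide, with cell medians of 885 and 3742 CPM, and 1 LApc cell alone held 57.0% of the LApc UMIs. Defa17 was at 5478 and 6728 CPM and was seen in all 74 LApcL members. The other genes of this cluster by rank were Defa36, Defa27, Defa29, Gm14851, AY761184, Defa21, Defa34, Defa3, Defa26, Gm15293 and Defa5, and all of these sums rest on reads that near-identical copies could share.

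Granule genes that are no defensins were also mostly higher. Of those checked, Ang4 shared 4.7% of its 50-base stretches with another gene, Itln1 0.972% and Mmp7 0%. Ang4, an antimicrobial ribonuclease, stood at 6797 CPM in LApc and 6966 CPM in LApcL, 286-fold (272 to 301) and 285-fold (272 to 298) above the other cells. It had at least 1 UMI in 20 of 23 and 63 of 74 members, with cell medians of 5909 and 3944 CPM. Mmp7 was at 9538 and 9990 CPM, but only 23.7-fold and 13.2-fold higher, since the other cells also carried it. After thinning each cell to 2000 UMIs, Mmp7 was seen in 91.3% of LApc and 98.6% of LApcL members, and in 30.2% and 47.3% of the other cells. Without thinning it was seen in 23 of 23 and 73 of 74 members, and in 68.7% and 74.8% of the other cells.

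Further granule genes stood apart in the same way. Clps, which encodes the pancreatic colipase, was at 1681 and 3639 CPM (342-fold and 372-fold higher). Reg4, a secreted lectin, was at 3226 and 1499 CPM, and Habp2, a serine protease, was at 187 and 190 CPM (122-fold and 111-fold). Nupr1, a stress-linked nuclear protein, was 10.6-fold and 11.4-fold higher. Not every gene of the list followed. The pentraxins Mptx1 and Mptx2 had at most 1 UMI in all members. Reg3b, an antibacterial lectin, was at 871 CPM in LApc against 782 CPM in the other cells, but 89.6% of these UMIs came from 1 cell, and in LApcL it was lower in the members, at 124 against 1510 CPM. The lipase gene Pnliprp2 was 137-fold higher in LApcL members and 1.66-fold higher in LApc members, where the other cells held 80.3 CPM against 1.52 CPM in LApcL.

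Markers of goblet cells stood high in the same cells. Of 17 list genes measured in LApc, 14 were at least 2-fold higher in the 23 members and 1 was lower, with a median log2 ratio of 4.51. In LApcL 15 of 19 were higher and 1 lower, with a median of 4.68. Of all genes 6.20% (LApc) and 5.47% (LApcL) were higher and 21.4% and 17.2% lower. Spink4, a protease inhibitor of goblet cells, was at 9119 and 8938 CPM, 331-fold and 216-fold higher than in the other cells, with UMIs in 23 of 23 and 73 of 74 members. The trefoil peptide gene Tff3 was at 9176 and 10602 CPM, with cell medians of 7578 (219 to 29470) and 9152 CPM (0 to 55475). These levels were similar in the 2 libraries and lay in nearly every member. Agr2, a folding enzyme for mucins, was at 914 and 1048 CPM, and Guca2a, which encodes guanylin, at 1738 and 1626 CPM.

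Muc2, the main secreted mucin of the gut, was at 517 CPM in LApc members and 421 CPM in LApcL members, 221-fold (186 to 263) and 123-fold (107 to 141) higher than in the other cells. It had UMIs in 16 of 23 and 66 of 74 members, and cells ran from 0 over medians of 109 and 335 to 2421 and 2824 CPM. At 2000 UMIs per cell it was seen in 34.8% and 58.1% of members against 0.555% and 0.512% of other cells. Other goblet genes were missing. Zg16 and Retnlb had 0 UMIs in all members, which allows up to 3 UMIs in each class, and Clca1 was at 0 and 4.56 CPM. Fcgbp, which binds mucin, was at 140 and 114 CPM, 3.24-fold and 6.13-fold higher than in the other cells, and in LApcL 38.7% of its UMIs came from 1 cell. S100a6 was the list gene that was lower, at 0.280 and 0.303 of the level in the other cells.

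**Figure D3:**
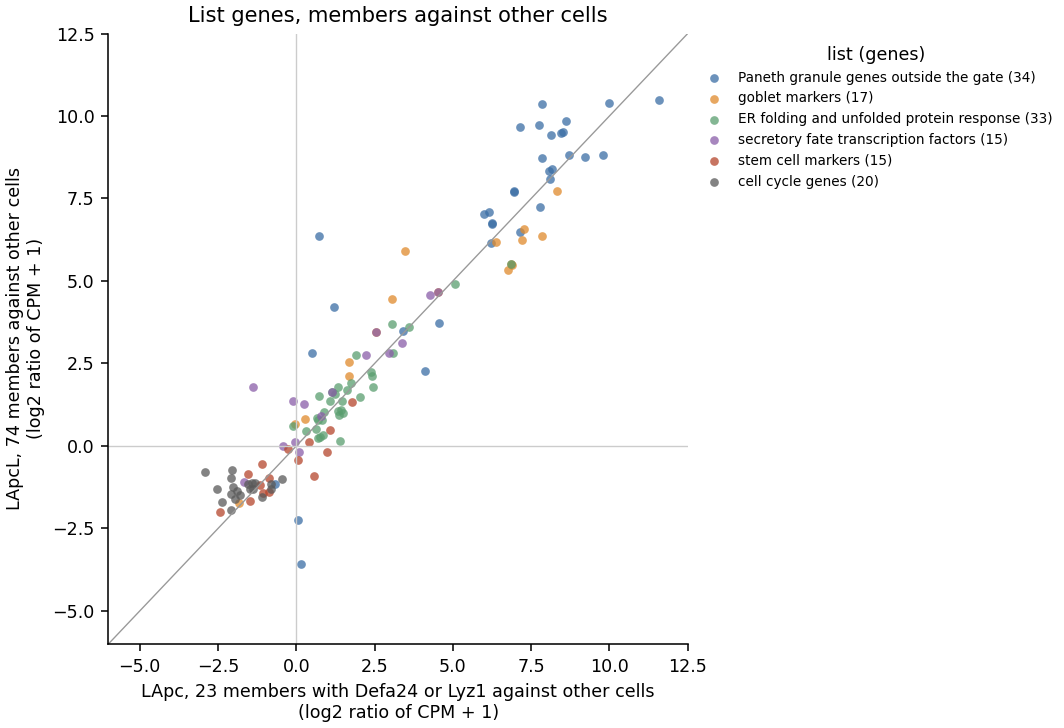
Each point is a gene of 1 of 6 lists, with the log2 ratio of members against other cells in LApc (23 members) on the x axis and in LApcL (74 members) on the y axis, both of CPM + 1. Granule genes sit at the upper right, goblet and folding genes follow near the diagonal, cell cycle genes sit at the lower left, and Reg3b and Pnliprp2 lie away from the diagonal.

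Genes of the secretory machinery were higher in the members of both libraries. Of 33 measured genes for folding in the endoplasmic reticulum and the unfolded protein response, 22 were at least 2-fold higher in the LApc members and 22 in the LApcL members, none was 2-fold lower, and the medians were 1.36 and 1.37, where 6.20% and 5.47% of all genes were higher and 21.4% and 17.2% lower. P4hb, a disulfide isomerase, was at 1351 and 1357 CPM, 5.24-fold (4.89 to 5.61) and 4.76-fold (4.56 to 4.97) higher, and had UMIs in every member. Hspa5, the main chaperone of that compartment, was 2.82-fold and 2.02-fold higher. Herpud1, a part of the degradation machinery, was 8.50-fold and 13.2-fold higher, the peptidyl-prolyl isomerase gene Fkbp11 12.7-fold and 12.8-fold, and Ern2, the epithelial stress sensor, 59.4-fold and 44.9-fold. The vesicle protein gene Rab3d was 4.19-fold and 3.22-fold higher.

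The transcription factors of the secretory lineage were low in level but high relative to the other cells. Of 15 measured, 7 were at least 2-fold higher and 2 lower in LApc, and 10 were higher and 1 lower in LApcL, again beside 6.20% and 5.47% of all genes higher and 21.4% and 17.2% lower. Spdef, which acts in goblet and Paneth maturation, stood at 31.7 and 46.2 CPM, 73.1-fold (40.6 to 128) and 54.9-fold (39.5 to 76.4) higher, with UMIs in 10 of 23 and 37 of 74 members. Bhlha15, a factor for granule build-up, was 32.5-fold and 33.5-fold higher, Gfi1 29.3-fold and 44.3-fold, and Atoh1 11.7-fold and 18.6-fold on 6 and 42 UMIs. Xbp1, the factor that enlarges the secretory apparatus, was 2.23-fold and 3.13-fold higher. Sox9 was at 193 and 188 CPM, close to the 181 and 214 CPM of the other cells, and Sox4 was lower, at 0.313 and 0.467 of their level. Hes1, a Notch target that represses Atoh1, was lower as well, at 192 and 175 CPM against 815 and 493 CPM.

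Among the ligands that Paneth cells offer to stem cells, Wnt3 stood apart. It was at 127 CPM in LApc and 97.5 CPM in LApcL, 90.8-fold (67.9 to 121) and 76.9-fold (60.2 to 98.7) above the other cells, and 17 of 23 and 49 of 74 members had a UMI. At 2000 UMIs per cell it was seen in 26.1% and 14.9% of members against 0.196% and 0.199% of other cells, and without thinning the other cells had it in 1.14% and 1.02%. The Notch ligand gene Dll4 was 4.92-fold (2.43 to 8.92) and 6.78-fold (4.96 to 9.11) higher at 17.4 and 29.1 CPM. Wnt6 went the other way, at 39.6 and 30.8 CPM against 198 and 172 CPM. Egf had 1 and 7 UMIs, Dll1 had 2 and 4, and of 12 and 11 measured genes of this list 2 and 3 were at least 2-fold higher and 2 and 2 lower, beside 6.20% and 5.47% of all genes higher and 21.4% and 17.2% lower.

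The stem cell markers did not share a direction. In LApc 2 of 16 were at least 2-fold higher and 6 lower with a median of -0.78, and in LApcL 1 of 15 was higher and 5 lower with a median of -0.84. Over all genes of at least 10 UMIs, 6.20% (LApc) and 5.47% (LApcL) were 2-fold higher and 21.4% and 17.2% 2-fold lower, with medians of -0.40 and -0.36. Lgr5, the receptor that marks crypt base stem cells, was at 36.5 and 69.0 CPM against 34.7 and 92.4 CPM in the other cells, a ratio of 1.05 (0.665 to 1.58) and 0.747 (0.619 to 0.893). Only 9 of 23 and 33 of 74 members had an Lgr5 UMI, and 1 LApcL cell held 23.97% of the LApcL UMIs. Ascl2, a stem cell factor, was at 0.171 and 0.242 of the other cells' level, and Smoc2 at 0.539 and 0.507. Cd24a, a surface protein used to sort Paneth cells, was 3.41-fold and 2.50-fold higher, and the Wnt-responsive receptor gene Ephb3, which keeps Paneth cells at the crypt base, was 2.24-fold and 2.94-fold higher. Slc12a2, a chloride transporter, was at 420 and 672 CPM against 320 and 622 CPM.

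Targets and inhibitors of Wnt signaling did not behave as 1 group. Axin2, a general Wnt target, stood at 181 and 143 CPM, 0.451 and 0.437 of the other cells' level, and the cell cycle target Ccnd1 at 0.344 and 0.330. Nkd1, an inhibitor of Wnt signaling inside the cell, was at 358 CPM against 536 CPM in LApc (ratio 0.669, 0.585 to 0.763), while in LApcL it was at 183 against 185 CPM (0.990, 0.883 to 1.11). Notum, an enzyme that inactivates Wnt ligands, was at 252 against 305 CPM and at 92.96 against 77.7 CPM, with 40.3% of the LApc UMIs in 1 cell. Of the targeted genes, Apc was at 74.5 and 63.9 CPM in the members and Lef1 at 31.7 and 21.1 CPM, against 71.2 and 49.6 CPM of Lef1 in the other cells and 0.943 CPM in the other WT cells. Lef1 transcript was thus counted in LApcL cells as well. Which exons were floxed is not given in the sources used here, so these levels do not check the deletion. The study reports that it had established Lef1 deletion separately before it sequenced its organoids.

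Genes of the cell cycle were lower in the members. In LApc 17 of 20 were at least 2-fold lower and 0 higher with a median of -1.83, and in LApcL 16 of 20 were lower and 0 higher with a median of -1.29, where 21.4% and 17.2% of all genes were lower and 6.20% and 5.47% higher. Mki67, a proliferation marker, was seen in 2 of 23 LApc and 11 of 74 LApcL members, and single cells held 96.0% and 74.2% of its UMIs. Stmn1, a microtubule regulator of dividing cells, was at 228 and 226 CPM against 896 and 697 CPM. The 10 genes ranked lowest in the pooled members were Gsta4, Ier3, Anxa1, Kitl, Vim, Lgals3, S100a10, Bex1, Slc25a4 and S100a6. Their pooled log2 ratios ran from -2.23 to -1.62, and S100a6, a calcium-binding protein, had the highest level, at 1805 and 1048 CPM against 6451 and 3459 CPM. With a minimum of 50 CPM in place of 200 CPM only 2 of these 10 genes were still named.

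The members were not uniform, and some genes differed with the amount of granule transcript. Levels for this were set per 1000000 UMIs outside the rule genes and all Defa genes, and members were split at 5%, 10% and 20% of UMIs from the rule genes, which gave 8, 7, 5 and 3 LApc cells and 21, 14, 26 and 13 LApcL cells. Most of these bins hold fewer than 20 cells, so the values describe few cells. From the lowest to the highest bin P4hb ran from 938 to 2357 in LApc and from 1201 to 2139 in LApcL, and Itln1 from 6394 to 48700 and from 672 to 10580. Muc2 was at 46.2 in the lowest and 2357 in the highest LApc bin and at 374 and 841 in LApcL. The summed folding list was at 9876, 16650, 22330 and 23260 in LApc and at 12130, 17630, 18460 and 16070 in LApcL, and the summed goblet list at 12550, 30150, 39140 and 57430 and at 19020, 28640, 41000 and 34920. Both sums were thus higher in each higher bin in LApc but not in LApcL, where the top bin was below the bin before it. In LApcL Mmp7 and Tff3 were highest at 10% to 20%, at 15680 and 17590, and lower above 20%, at 10670 and 12570.

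The summed cell cycle list was highest in the lowest bin, at 2251, 697, 510 and 393 in LApc and at 3401, 1960, 793 and 539 in LApcL, but this order rests on single cells. In the lowest bins 1 cell held 73.6% (LApc) and 80.9% (LApcL) of these UMIs, and in the LApcL bin of 5% to 10% 1 cell held 76.6%. Without the cell that held most in each bin, an alternative chosen after seeing the data, the sums were 996, 617, 413 and 452 in LApc and 917, 578, 677 and 498 in LApcL. Nkd1 was at 692, 316, 251 and 103 in LApc but at 168, 274, 281 and 148 in LApcL. The summed stem cell list lay between 2471 and 3329 in LApc and between 2572 and 3063 in LApcL, but its genes differed. From the lowest to the highest LApc bin Axin2 was at 359 and 41.3 and Lgr5 at 56.4 and 0 (on 11 and 0 UMIs), while Cd24a was at 820 and 1778 and Slc12a2 at 267 and 827. The median depth of the bins was 17490 to 35530 UMIs in LApc and 14610 to 22690 UMIs in LApcL, with the lowest bin the shallowest in both, and the part of depth in these values was not tested.

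**Figure D4:**
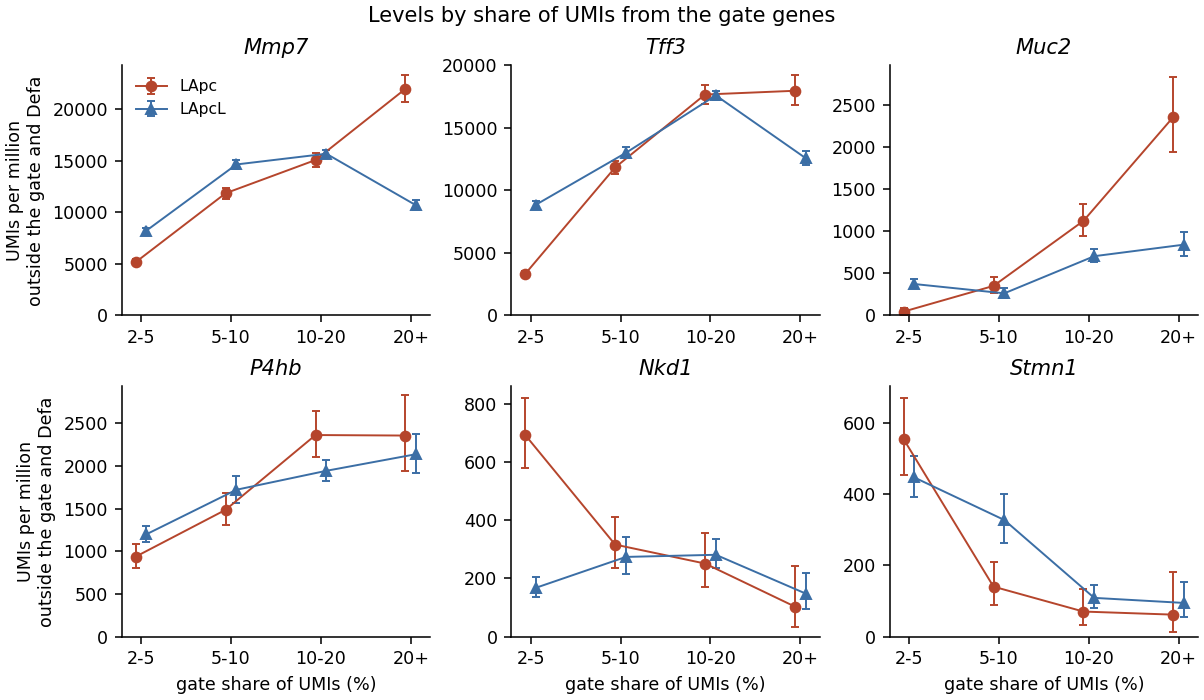
Levels of 6 genes are plotted per 1000000 UMIs outside the rule and Defa genes against the share of UMIs from the rule genes, for 23 LApc members (red) and 74 LApcL members (blue), with 95% Poisson bars. P4hb and Muc2 are higher and Stmn1 is lower in the highest than in the lowest bin of both libraries (1 cell held 42.1% of the LApcL Stmn1 UMIs), while Nkd1 lies between 692 and 103 in LApc and between 148 and 281 in LApcL.

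Across single cells Defa22 and Defa21, whose reads are hard to separate, had a Spearman correlation of 0.849 over the 23 LApc and 0.806 over the 74 LApcL members. Mmp7 and Tff3 had 0.563 and Mmp7 and Wnt3 0.484 over the LApcL members. All of these share the library and the depth of each cell, and no test is given. Correlations among the 3 rule genes are not given, since the cells were chosen by the sum of those genes.

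Between the 2 targeted libraries the members differed in a few gene groups, with the day after tamoxifen and the sex of the mice differing too. Itln1, a lectin that binds microbial sugars, was at 12278 CPM in LApc and 3035 CPM in LApcL, a ratio of 0.247 (0.239 to 0.256), with cell medians of 13298 and 308 CPM and cells from 0 to 44087 and from 0 to 37336 CPM. The ratio in the other cells was 0.3498, so Itln1 was also lower in LApcL outside the members. Reg4 was at 0.465 and Ccl6, a chemokine gene, at 0.323 of the LApc level. Clps was higher in LApcL, 2.16-fold (2.03 to 2.31), and so was the trefoil gene Tff2, 3.57-fold (2.77 to 4.69). Ang4, Mmp7, Spink4 and Tff3 differed by a factor of 0.980 to 1.16.

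Some of the ranked differences rest on few cells. They also depend on the minimum level of 200 CPM. At 50 CPM 4 of the 10 genes ranked highest and 4 of the 10 ranked lowest in LApcL members were still named. Of the 10 genes ranked highest in LApcL members, 6 belong to the Defa cluster (Defa29, AY761184, Gm14851, Defa27, Gm7861 and Defa36), and Defa29, at 1707 against 147 CPM, drew 46.6% of its UMIs from 1 cell. Aldh1b1, a mitochondrial dehydrogenase gene, and Fosb, an immediate early gene, were 3.13-fold and 2.18-fold higher than in the 23 LApc members. In the list of granule genes outside the rule 13 of 35 were at least 2-fold higher and 3 lower than in all 30 LApc members, where 6.43% of 10171 genes were higher and 7.61% lower. Against the 23 LApc members 9 were higher and 4 lower, where 7.72% of all genes were higher and 4.12% lower. Cell cycle genes were higher in LApcL, with 13 of 20 at least 2-fold higher against all 30 LApc members and 9 of 20 against the 23, but a single LApcL cell held 74.2% of the Mki67 UMIs and the log2 ratio of Mki67 turned to -0.87 when the highest doublet scores of Scrublet were removed. None of the 33 folding genes was 2-fold higher in either comparison, and 0 and 1 were lower.

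The secreted and intracellular Wnt antagonists were mostly lower in LApcL, by an amount that depended on the rule. Against all 30 LApc members 5 of 6 were at least 2-fold lower with a median log2 ratio of -1.76, and against the 23 members 3 of 6 were, with a median of -1.20, where 7.61% and 4.12% of all genes were lower. The median was -0.83 with a rule of 5% and -0.71 with a rule of 2% on Defa24 and Lyz1 alone, under which Wif1 turned to 0.38. Nkd1 was at 0.511 (0.430 to 0.608) and Notum at 0.369 (0.294 to 0.462) of the level of the 23 LApc members, but Notum rests on 2 cells, which held 119 of its 159 LApc UMIs. Without the 2 cells of each library with most Notum, chosen after seeing the data, it was at 67.7 CPM in LApc and 81.6 CPM in LApcL, so the direction turned. Nkd1 was at 286 and 186 CPM without its 2 top cells, and by share of rule genes it differed mainly below 5%. Dkk3 stood at 31.7 and 0.570 CPM, on 20 UMIs and 1 UMI. The same antagonists were lower in the other LApcL cells too, with 4 of 6 at least 2-fold lower, 0 higher and a median of -1.74 (1.20% of all genes were higher there and 3.81% lower), and with Nkd1 at 0.345 and Notum at 0.255, so the difference was not particular to the members. Wif1 was at 247 CPM in all 30 LApc members, at 61.9 CPM in the 23 and at 42.8 CPM in LApcL.

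**Figure D5:**
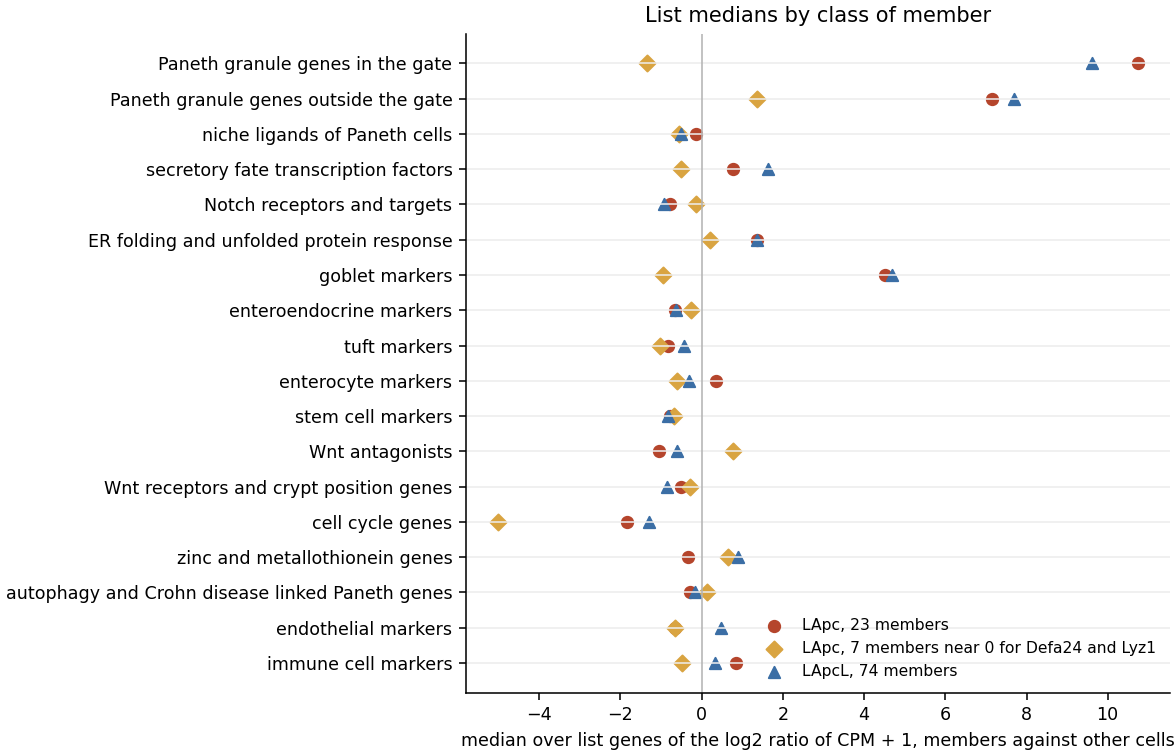
For each gene list the point gives the median log2 ratio of CPM + 1, members against other cells of the same library, for the 23 LApc members (red circles), the 7 Defa22/Defa21-high LApc cells (yellow diamonds) and the 74 LApcL members (blue triangles). Red and blue lie close together for most lists, whereas the yellow points are at 0.20 for folding genes, at -0.95 for goblet genes and at -5.02 for cell cycle genes.

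The 7 Defa22/Defa21-high cells lacked most of what the other members shared. Defa22 stood at 53963 CPM and Defa21 at 52450 CPM in them, and each of the 7 cells had between 2.54% and 9.90% of its UMIs from Defa22 and between 1.10% and 12.49% from Defa21. These levels, and those of Defa24 and Lyz1 at 8.29 CPM each, follow from how the 7 cells were set apart. Ang4 and Tff3, which did not enter the choice, were at 8.29 CPM, and Defa17, Clps, Spink4, Muc2, Agr2, Wnt3, Spdef and Atoh1 had 0 UMIs among 241183. Of 26 granule genes outside the rule 14 were at least 2-fold higher than in the other LApc cells and 8 lower, beside 11.1% and 23.4% of all genes. Most of this list is Defa genes that share sequence with Defa22, and without the Defa cluster 5 of 14 were higher and 7 lower, with a median of -1.01. The goblet list had 1 gene of 17 higher and 8 lower, and the folding list 6 of 33 higher and 4 lower. Of 20 cell cycle genes 19 were at least 2-fold lower than in the other LApc cells, and Stmn1, at 1153 CPM, was the exception. Their summed level was 1327 CPM, against 1018 CPM in the 23 other members and 3158 CPM in the other LApc cells. The 7 cells had 15320 to 59220 UMIs and 2.38% to 5.79% mitochondrial UMIs, within the range of the other members.

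Other genes stood higher in the 7 cells than in the other members. The comparison here is with members only. Nkd1 was also higher in the other LApc cells than in the 23 members, so such levels need not be particular to the 7 cells. The neuropeptide gene Npy had 1926, 822, 46, 8, 1, 0 and 0 UMIs in them, or 11622 CPM in sum, and at most 1 UMI in any of the 23 other LApc members and 0 in LApcL. Pglyrp1, a peptidoglycan recognition protein gene, was at 8110 CPM against 1356 CPM in the 23 members, and Ptn, a growth factor gene, at 2807 against 147 CPM. Nkd1 was at 999 against 358 CPM, with all 7 cells between 689 and 1504 CPM, and Wif1 at 730 against 61.9 CPM, with all 7 between 417 and 1567 CPM. Npy, Mt3 and Wif1 were among the 10 genes ranked lowest in LApcL against all 30 LApc members, but in the 23 LApc members they were at only 4.76, 23.8 and 61.9 CPM. In the list of zinc and metallothionein genes, which holds Mt3, the lowest log2 ratio of LApcL to LApc was -4.90 in all members. It was -6.74 in the other cells, so low ratios in that list were not confined to the members. The ranked genes Ptn, Spock2, Neb, Vim, Pglyrp1 and Blvrb were lower in LApcL also without the 7 cells, although single cells held 80.6% of the Ptn, 53.8% of the Neb and 81.2% of the Vim UMIs of the 23 members. Ly6d, a surface protein gene, was at 396 CPM in 4 of the 23 LApc members and at 1.14 CPM in LApcL.

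Cells of this kind went beyond the 7. Of all kept LApc cells 56 had at least 0.1% of their UMIs from Defa22, and in 35 of these Defa24 and Lyz1 together stayed under 0.1%. In LApcL 68 cells had that much Defa22, of which 2 were under the limit for Defa24 and Lyz1, and in WT none of the 2319 cells had it. The part of read sharing between Defa22 and its copies in these counts was not tested.

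The 250 bases before the Defa22 start are shown because the gene was read in cells with and without the other granule genes. They lie at chr8:21162027-21162276 on the + strand (RefSeq, GRCm38.p6), and the capitals mark matches to the core of the TCF/LEF motif, CTTTGA on either strand, which start 111 and 71 bases before the gene.
Defa22 upstream: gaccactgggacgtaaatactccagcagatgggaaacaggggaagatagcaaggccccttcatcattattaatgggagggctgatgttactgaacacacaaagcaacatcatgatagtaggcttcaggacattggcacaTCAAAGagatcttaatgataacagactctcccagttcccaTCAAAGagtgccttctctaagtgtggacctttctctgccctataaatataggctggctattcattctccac
Of 32851 mouse promoter windows of this length 13.8% hold that motif, and 13.0% hold the E-box CAGCTG. Of the 16 Defa genes with an entry 13 hold the first and 1 holds the second, but these genes are copies of each other and their windows are not independent. The Lyz1 and Ang4 windows hold neither. A match of these letters is a description of the sequence and not a measured site.

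The summed level of lists of 6 to 16 markers was 45.9 and 10.8 CPM (LApc and LApcL) for enteroendocrine cells, 5.74 and 0.570 CPM for tuft cells, 34.4 and 6.84 CPM for enterocytes, 31.0 and 6.84 CPM for immune cells and 0 and 0.570 CPM for mesenchymal cells, over all 30 and 74 members. In the other cells the sums were 34.9 and 16.0, 15.8 and 3.88, 14.3 and 16.0, 21.0 and 6.95, and 2.11 and 0.818 CPM in the same order. The enterocyte and immune sums of the 23 LApc members, at 38.1 and 42.8 CPM, thus lay above those of the other LApc cells, with 3 of 9 and 2 of 4 genes at least 2-fold higher (6.20% of all genes were), and their part in the LApc results was not tested. The immune list includes Lyz2, which is also in the granule list and shares sequence with the rule gene Lyz1. The enteroendocrine sum was 9.52 CPM in the 23 LApc members and 141 CPM in the 7 Defa22/Defa21-high cells, against 34.9 CPM in the other LApc cells. In the 7 cells 5 of 11 of these markers were at least 2-fold higher and 2 lower, beside 11.1% and 23.4% of all genes, with Pcsk1n at 41.5 CPM in 2 cells and Chgb and Scg5 at 33.2 CPM in 1 cell each. The endothelial sum was 25.2 and 23.4 CPM against 14.7 and 5.89 CPM in the other cells. Chga had 2 UMIs in LApc, both in the Defa22/Defa21-high cells, and Neurod1, Dclk1, Trpm5, Ptprc and Kdr were at 0 in all members. The endothelial marker Pecam1 was at 17.4 and 18.2 CPM, in 5 of 23 and 11 of 74 members, against 1.45 and 0.680 CPM in the other cells, while its companion Cdh5 had 1 UMI in each class. With shared barcodes kept, the log2 ratio of Pecam1 turned to -1.25 and -1.14. The hormone gene Sct, which encodes secretin, was 25.1-fold and 17.0-fold higher in the members, at 514 and 290 CPM in 20 of 23 and 62 of 74 cells.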

How the data were processed

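Single cells of 3 organoid libraries were analysed from the deposited UMI counts per gene and barcode (32285 genes), which the authors made with Cell Ranger on mm10. The matrix headers name version 6.0.1 and the submitters' processing notes 2.1.1. Kept cells had at least 2000 UMIs, at most 20% mitochondrial UMIs and a barcode in only 1 library. No doublets were removed. Counts were summed per class and given as CPM with exact Poisson intervals, folds with conditional binomial intervals, shares with Clopper-Pearson intervals (95%), and log2 ratios with a pseudocount of 1 CPM. List genes needed at least 10 UMIs. With 1 library a genotype no test between conditions was made, and intervals cover counting error only.

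Members and gene lists were chosen with earlier results of these data known. Named genes were the list genes, the 20 highest and 10 lowest pooled members-to-others ratios among genes of at least 200 CPM and 2-fold in each library, and the 10 highest and 10 lowest LApcL-to-LApc ratios (200 CPM in 1 of them), without mitochondrial and sex-linked genes. Python 3.11.15, numpy 2.4.6, pandas 2.3.3, scipy 1.17.1 and scanpy 1.11.5 were used, and the scripts were tested on simulated data. Alternatives were other limits, scalings, pseudocounts and Scrublet.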

Additional observations from a re-analysis of the deposited data

Results flagged for a closer look

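Members and other cells differed by at least 2-fold in opposite directions in the 2 libraries for 2 named genes of at least 20 CPM in 1 of the classes, and the difference between libraries was not tested. The log2 ratio of Cited1, a transcriptional co-regulator gene, was 1.07 in the 30 LApc members and -3.82 in the LApcL members, where it had 0 UMIs. In the 23 LApc members without the Defa22/Defa21-high cells Cited1 was also lower than in the other cells, at 14.3 CPM and 0.205 of their level. For Ly6d the log2 ratio was 2.50 in LApc and -3.30 in LApcL, and 1 LApc cell held 52.0% of the UMIs of the 23 members. Among barcodes above the mitochondrial limit, which entered only the alternative without that limit, 2 in LApc and 6 in LApcL also had at least 2% of their UMIs from Defa24, Defa22 and Lyz1.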

How the results depend on the processing

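No paired analysis was possible because each genotype was 1 library. Among the shares and list medians under the alternatives, 123 values stayed close to the reported ones and 24, given here, moved. Of 2595 log2 ratios of single genes 7 changed sign from a reported ratio of at least 2-fold. Sign changes of smaller ratios were not counted, and 887 values outside the shares and list medians moved. With at least 5% of UMIs from the rule genes the share of Paneth-like cells was 0.582% (LApc) and 1.48% (LApcL), and without a mitochondrial limit 0.557% and 1.28%. In LApcL it was 3.11% with at least 10000 UMIs, 2.78% with a mitochondrial limit of 10% and 1.57% with shared barcodes kept. The median log2 ratio of granule genes in LApcL was 7.98 without rule and Defa UMIs in the total, 7.98 with median-of-ratios factors and 7.37 with the 5% rule. A pseudocount of 10 CPM gave 4.38 and 5.34 for granule genes and 1.83 and 3.00 for goblet genes, and no minimum of UMIs gave 6.47 and 6.89 for granule genes and 2.86 for goblet genes in LApc. The median of the Wnt antagonists, LApcL against LApc members, was -0.83 with the 5% rule. Some single genes turned. Mki67 between LApcL and LApc members turned to -0.87 when the highest Scrublet scores were removed (77 LApc and 103 LApcL barcodes, with 0 and 8 members), since Scrublet's own threshold called 0 doublets in both libraries. Pecam1, members against other cells, turned to -1.25 (LApc) and -1.14 (LApcL) with shared barcodes kept, and Ly6d in LApcL to 0.069 with a 1% rule.

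The following alternatives were chosen after seeing the data. Without the 7 Defa22/Defa21-high cells the granule median in LApc was 7.14 and that of the Wnt antagonists -1.20. Without the Defa cluster the granule median was 2.94 (LApc) and 3.96 (LApcL). A rule of 2% on Defa24 and Lyz1 alone gave 7.28 for granule genes in LApcL and -0.71 for the antagonists, and it turned Wif1 (0.38) and Mki67 (-0.58) between LApcL and LApc members. Reg3b between LApcL and LApc members turned to 0.74 without the deepest member of each library. The cause of these turns was not tested.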
